A study of Mus musculus with 5 samples.

Results

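Sox genes encode transcription factors that bind and bend DNA through a shared domain, the HMG box, and are sorted into lettered groups by the similarity of that box. SoxF factors (Sox7, Sox17 and Sox18) act in the lining of blood and lymph vessels. SoxE factors (Sox9 and Sox10) act in cartilage, ductal epithelium and neural crest glia, SoxD factors (Sox5, Sox6 and Sox13) pair through a coiled coil and carry no activation domain of their own, and the SoxC factor Sox4 acts in progenitors and epithelia. In adipose tissue of mice, Sox9 is known from preadipocytes, in which its level falls as they become fat cells.

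The levels of 9 Sox genes (Sox4, Sox5, Sox6, Sox7, Sox9, Sox10, Sox13, Sox17 and Sox18), chosen by name out of 32285 genes counted, were followed across 5 white adipose depots and the cell classes in them. EWAT is epididymal fat (6 mice pooled), SWAT subcutaneous fat (6 mice), NWAT perirenal fat (6 mice), MWAT mesenteric fat (10 mice) and HWAT fat around the heart (20 mice). All mice were 10-week-old chow-fed males perfused with heparin in PBS, and lymph nodes were cut out of SWAT and MWAT. The protocol gives the strain as C57BL/6J for all, while the separate strain field carries C57BL/7J on MWAT, C57BL/8J on NWAT and C57BL/9J on HWAT. Each depot was 1 single-nucleus library from 1 pool of mice, so no difference between depots has a replicate check and no p-value is given. Intervals in brackets are 95% limits that cover counting error only, not the spread between mice, dissections or libraries.

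The libraries held 23313545 to 43855063 unique molecular identifiers (UMIs, each standing for 1 captured RNA molecule) in 12324 to 19770 barcodes. After filtering, 66249 nuclei were kept, and marker genes named all but 0.837 to 3.15% of the nuclei of each library. In every depot the adipocyte-like class had 8 of 8 adipocyte markers, the FAP-like class (fibro-adipogenic progenitors, the fibroblast-like cells of fat) 8 of 8 and the endothelial-like class 10 of 10 at more than 2-fold the rest of the library. Libraries shared 40 to 87 barcodes per pair. Levels are UMIs per 1000000 UMIs (CPM) of all nuclei of a class in a depot added together, given for classes of at least 50 nuclei. They were compared between depots and classes within a gene, and not between genes.

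The kept nuclei held 2999 UMIs of Sox7, 3082 of Sox17, 3103 of Sox18, 2406 of Sox13, 77415 of Sox5, 54773 of Sox6, 1696 of Sox4, 446 of Sox9 and 393 of Sox10. The 3 SoxF genes resemble one another in the HMG box, which raises the question whether a read of one could be counted as another. They lie on different chromosomes (GRCm38, GENCODE vM21): Sox7 at chr14:63943673-63950732 on the plus strand, Sox17 at chr1:4490931-4497354 and Sox18 at chr2:181669836-181671640, both on the minus strand. The 120 coding bases below belong to their HMG box and are shown because this is the part the group shares. They lie, across the junction of 2 exons, within chr14:63943981-63947861 for Sox7, chr1:4492562-4493112 for Sox17 and chr2:181670890-181671194 for Sox18. Each runs 5′ to 3′ along the coding strand, and capitals mark the 90 bases that all 3 genes have in common.
Sox7: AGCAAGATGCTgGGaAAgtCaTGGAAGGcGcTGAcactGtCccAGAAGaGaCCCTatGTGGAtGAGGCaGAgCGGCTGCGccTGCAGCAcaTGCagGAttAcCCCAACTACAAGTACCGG
Sox17: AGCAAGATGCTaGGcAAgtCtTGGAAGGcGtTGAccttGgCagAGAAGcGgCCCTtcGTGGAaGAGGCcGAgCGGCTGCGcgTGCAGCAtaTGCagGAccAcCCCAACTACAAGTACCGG
Sox18: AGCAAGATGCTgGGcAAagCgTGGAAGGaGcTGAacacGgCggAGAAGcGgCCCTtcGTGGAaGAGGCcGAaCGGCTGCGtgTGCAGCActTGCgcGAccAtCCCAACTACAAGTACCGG
In this stretch Sox7 and Sox17 were identical at 101 bases, Sox7 and Sox18 at 93 and Sox17 and Sox18 at 103. Despite this likeness, no run of 31 bases was shared between the transcripts of Sox7, Sox17 and Sox18. Of the 3269 runs of 31 bases in the Sox7 transcript, 23 also occur in transcripts of other genes, Sox13 among them, against 0 of 3097 for Sox17 and 0 of 1590 for Sox18. Sox7 has no overlapping gene, and its nearest neighbours are Pinx1, 23814 bases before it, and 4930578I06Rik, 18607 bases after it.

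The 9 genes had different places among the cell classes, as the map of all levels shows. Sox7, Sox17 and Sox13 were highest in endothelial nuclei in all 5 depots and Sox18 in the 4 depots where its top class had at least 20 UMIs. Sox10 was held by Schwann-like nuclei, Sox9 by epithelial, multiciliated and FAP nuclei, and Sox5, Sox6 and Sox4 were spread over adipocyte, FAP, mural and mesothelial nuclei, with a top class that varied by depot. Levels within a class differed between depots for most members, as they did for many genes. In adipocyte nuclei, 7 of the 8 members with at least 20 UMIs differed by 2-fold or more between their highest and lowest depot, against 56.5% of all genes tested. In endothelial nuclei it was 6 of 7 members, against 45.7% of genes, in FAP nuclei 5 of 7, against 51.5%, and in mesothelial nuclei 5 of 7, against 40.9%. A lead of 2-fold or more of the highest depot over the next was rarer. It was found for 1 of 8 members in adipocytes (Sox7), against 7.9% of genes, for 0 of 7 in endothelium, against 4.26%, for 1 of 7 in FAP nuclei (Sox6), against 6.09%, and for 1 of 7 in mesothelial nuclei (Sox9), against 7.66%. A lowest depot at 2-fold or more below the next lowest was found once in each class: for Sox13 in adipocytes (10.8% of genes), Sox6 in endothelium (6.15%), Sox4 in FAP nuclei (7.14%) and Sox17 in mesothelial nuclei (8.73%). Patterns that few other genes had were Sox7 in EWAT adipocytes, Sox18 in NWAT and HWAT endothelium and Sox9 in EWAT and HWAT progenitors, and they are described gene by gene.

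**Figure D1:**
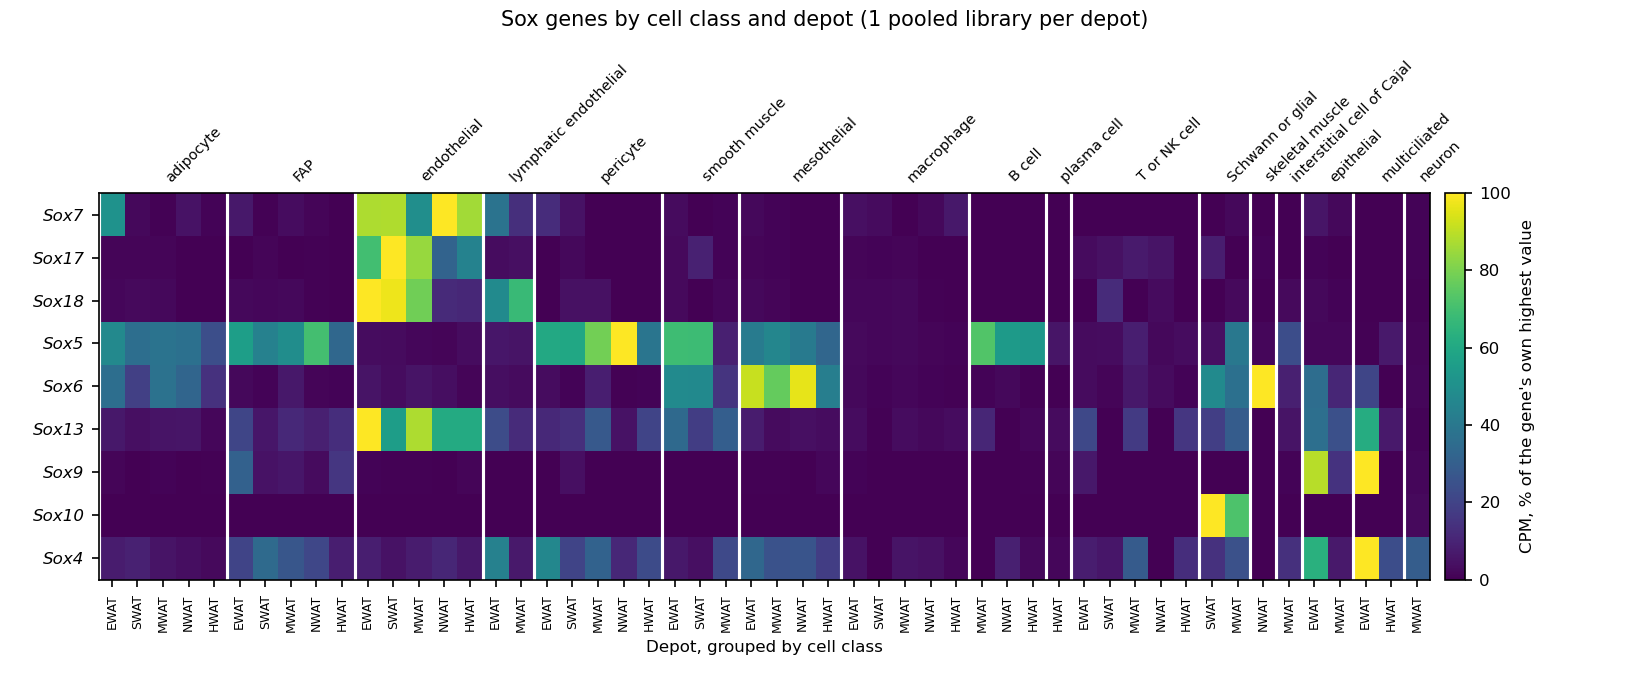
Levels of the 9 Sox genes by cell class and depot; each cell is the CPM of that class and depot as a percentage of the same gene's highest value, so shades compare classes and depots within a gene only. Lighter shades are higher levels. Sox7 is raised in EWAT adipocyte-like nuclei and in endothelial-like nuclei of every depot, while Sox17 and Sox18 are raised in endothelial-like nuclei alone among these 2 classes.

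Sox7, a SoxF factor known from blood vessels and early blood formation, was at 63.2 CPM in EWAT adipocyte nuclei (59.8 to 66.7, from 1308 UMIs in 8270 nuclei). The other depots had 6.11 CPM in NWAT (5.09 to 7.28), 2.64 in SWAT (1.85 to 3.65), 1.05 in HWAT (0.287 to 2.69) and 0.848 in MWAT (0.275 to 1.98). EWAT thus stood 10.3-fold over NWAT (8.60 to 12.5) and 74.5-fold over MWAT (31.9 to 229.9), with no overlap of the counting intervals. The first ratio was 19.2 after subtraction of a free-RNA profile, for which the sum of all barcodes of the library stood in. That profile includes the adipocyte nuclei themselves, so part of their own signal was subtracted. With means of single-nucleus CPM the ratio was 9.20, which is under 10-fold. Of 16818 genes tested in adipocytes, 3 were 10-fold or more higher in EWAT than in every other depot, which is 0.0178% of them, and Sox7 was among the 3. Sox7 was the only member of 8 at 2-fold or more over every other depot, against 0.832% of all genes. The interval of its ratio to NWAT spans 10-fold, and Sox7 was chosen with earlier results of these data known. These percentages are therefore a description.

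Endothelial nuclei, where the gene is known to act, did not share this difference. There Sox7 was at 124 CPM in NWAT (112 to 136), 109 in EWAT (98.6 to 120), 109 in SWAT (97.7 to 122), 107 in HWAT (80.1 to 139) and 61.3 in MWAT (51.0 to 73.2). MWAT lay below the rest, with NWAT 2.02-fold over it (1.65 to 2.49), and the intervals of the other 4 depots overlapped. Adipocyte nuclei held 72.9% of all Sox7 UMIs of EWAT and endothelial nuclei 23.8%. In NWAT the adipocyte share was 22.2% and the endothelial share 74.6%, and in SWAT, MWAT and HWAT the adipocyte share was 9.09%, 3.07% and 4.82%.

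RNA set free from broken endothelial nuclei would bring Sox7, Sox17, Sox18 and the endothelial markers into other nuclei in the ratio they have in endothelium, which gives a measurement of its size. In EWAT, the adipocyte level of Sox7 was 58.2% of the endothelial level. Sox17 was at 1.81%, Sox18 at 1.86%, and the 10 endothelial markers at 0.660 to 2.33%, all far below the percentage of Sox7. Against Sox17, Sox7 was 32.2 times as high in EWAT adipocytes as in EWAT endothelium (24.9 to 41.9), against Sox18 31.3 times (24.9 to 39.5) and against the sum of the 10 markers 51.5 times (45.6 to 58.1). Scaled by Sox17, Sox18 or the markers, endothelial RNA would carry 40.6, 41.8 or 25.4 of the 1308 UMIs, or 3.11%, 3.20% or 1.94% of them as point estimates. Taken as means of single-nucleus CPM, the 3 ratios were 20.9, 20.6 and 32.8.

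The same ratios in the other depots show where Sox7 in adipocyte nuclei can be told from endothelial RNA. In NWAT it was 4.80 against Sox17 (2.93 to 8.20), 3.77 against Sox18 (1.84 to 8.69) and 9.32 against the markers (7.47 to 11.6). In MWAT the ratios were 0.989, 0.553 and 0.987, with intervals that all include 1, and in HWAT, with 4 Sox7 UMIs in adipocytes, the intervals also include 1. SWAT gave 1.85 against Sox17 (1.16 to 2.93), 0.986 against Sox18 (0.638 to 1.498) and 1.42 against the markers (0.974 to 2.02). In 3 of the 5 depots, then, Sox7 in adipocyte nuclei was at the level that endothelial RNA carries by at least 1 of the 3 scales, and in EWAT and NWAT it was above it by all 3.

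**Figure D2:**
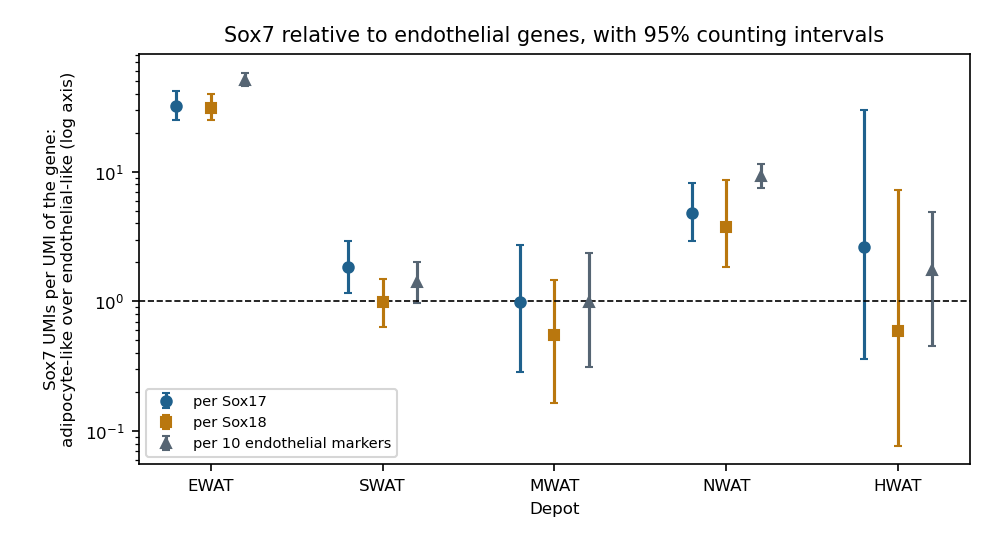
Sox7 in adipocyte-like over endothelial-like nuclei, scaled in turn by Sox17, by Sox18 and by the sum of 10 endothelial markers, for each depot on a log axis; bars are 95% intervals of counting error and the dashed line at 1 is the ratio that endothelial RNA carries. EWAT lies at 31.3 to 51.5 and NWAT at 3.77 to 9.32, while MWAT and HWAT intervals cross 1.

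In EWAT, the share of nuclei with a Sox7 UMI was lower in adipocytes than in endothelium, and lower still in mesothelial and macrophage nuclei. Of EWAT adipocyte nuclei, 11.4% held a Sox7 UMI (median 2442 UMIs a nucleus), against 14.9% of EWAT endothelial nuclei (median 1495). In EWAT mesothelial nuclei (median 1977), a class not known for Sox7, it was 0.515%, and in macrophage nuclei (median 1703) 0.943%. With each nucleus thinned to 1000 UMIs and shallower nuclei left out (854 adipocyte and 392 endothelial), the shares were 5.48% of adipocyte, 9.95% of endothelial, 0.368% of mesothelial and 0.604% of macrophage nuclei.

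Adipocyte nuclei with a Sox7 UMI did not carry more endothelial RNA in EWAT. The 941 EWAT nuclei with one had 73.1 CPM of endothelial markers (63.4 to 83.9), against 86.4 CPM in the 7329 without one (82.2 to 90.8). SWAT differed: its 35 adipocyte nuclei with a Sox7 UMI had 375 CPM of endothelial markers (275 to 498), against 89.9 CPM in the rest. NWAT, with 63.2 CPM (42.0 to 91.4) in 115 nuclei, against 36.4 CPM in the rest, lay between. Restricting EWAT adipocytes to the 6791 nuclei with no UMI of any endothelial marker left Sox7 at 63.8 CPM (60.0 to 67.7), and the same restriction in NWAT left 5.95 CPM. In MWAT it went from 0.848 to 0.785 CPM and in SWAT from 2.64 to 2.03 CPM. At these depths most adipocyte nuclei (82.1% in EWAT) hold no marker UMI. The restriction therefore does not separate Sox7 of adipocytes from free endothelial RNA.

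**Figure D3:**
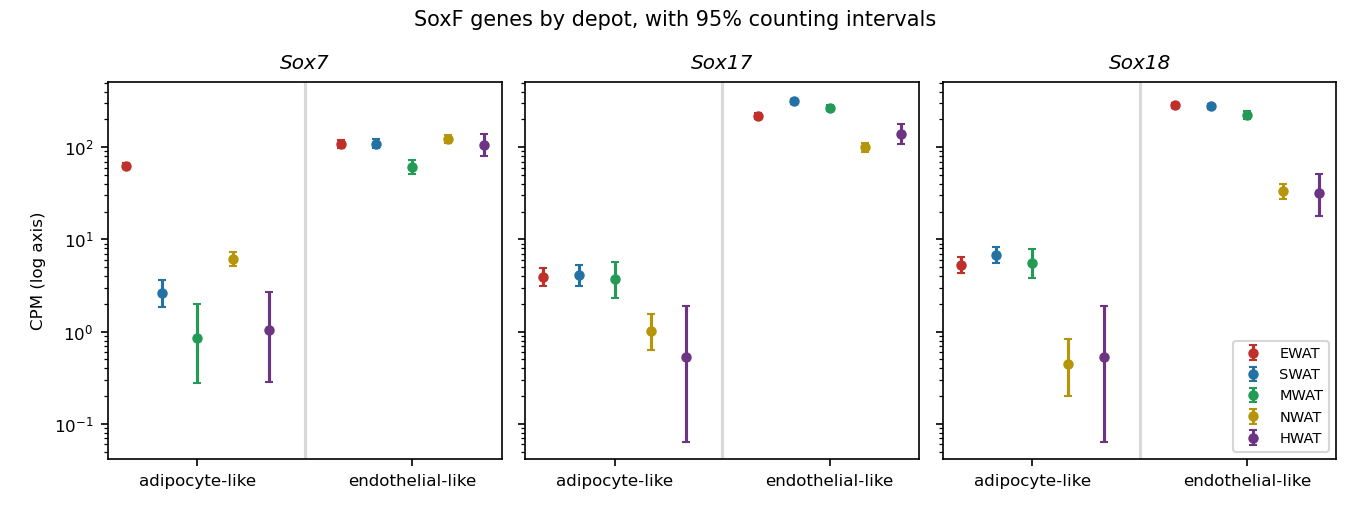
Levels of the SoxF genes Sox7, Sox17 and Sox18 in adipocyte-like and endothelial-like nuclei of each depot, in CPM on a log axis with 95% intervals of counting error. Sox7 in EWAT adipocytes (63.2 CPM) is at 58.2% of its endothelial level (109 CPM), whereas Sox17 and Sox18 stay at or under 2.50% of theirs in every depot.

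Sox7 was found in each EWAT adipocyte cluster of at least 50 nuclei. The largest cluster, led by Tshr and holding 67.0% of EWAT adipocytes, had 64.0 CPM in EWAT against 4.38 in NWAT, and the second, led by Fam13a, had 70.0 CPM in EWAT against 9.87 in NWAT. In smaller clusters led by Nrg4 and Gm16168, EWAT had 35.7 and 33.2 CPM, against 4.61 and 6.81 CPM in NWAT. A second cluster led by Fam13a, with 358 EWAT nuclei, had 52.6 CPM in EWAT (38.6 to 69.9). A cluster led by Thrsp, with haemoglobin genes among its leading genes, was the exception, at 29.4 CPM in EWAT (15.2 to 51.4) and 26.4 in NWAT (11.4 to 52.1). After the adipocyte list, its best match was the endothelial marker list, at a mean log2 fold of 1.187. The part of endothelial RNA in its Sox7 levels was not tested. HWAT and MWAT adipocytes lay mostly in clusters of their own, which held 94.5% and 72.7% of them, at 1.12 and 0.969 CPM. Depot and cluster are thus partly the same thing for those libraries and cannot be told apart there.

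Listed genes near Sox7 and genes tied to SoxF factors were compared in the same way. Of 5 listed genes near Sox7 on chromosome 14 (Pinx1, Rp1l1, Xkr6, Mtmr9 and Msra), 4 had at least 20 UMIs in adipocytes and none was 2-fold or more higher in EWAT than in every other depot. None of 12 endothelial genes linked to SoxF factors and none of the 10 endothelial markers was so in adipocytes either. Elsewhere in EWAT, Sox7 was at 8.00 CPM in FAP nuclei, 6.89 in epithelial, 4.95 in macrophage and 2.48 in mesothelial nuclei. Lymphatic endothelial nuclei had 47.4 CPM, from 9 UMIs (21.7 to 89.99).

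Sox17, the SoxF factor of arterial identity in mice, stayed with the endothelium. Endothelial nuclei held 87.6 to 95.95% of its UMIs in each depot. Its endothelial level was 315 CPM in SWAT (295 to 336), 267 in MWAT (245 to 290), 219 in EWAT (205 to 234), 140.1 in HWAT (110 to 177) and 100 in NWAT (89.7 to 111). SWAT was 3.15-fold over NWAT (2.78 to 3.58) and 1.18-fold over MWAT (1.06 to 1.31), so the order at the top rests on a small difference. In adipocyte nuclei it was at 0.526 to 4.10 CPM.

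Sox18, the SoxF factor that in mice starts lymphatic development, divided the depots into 2 sets in endothelial nuclei. EWAT had 286 CPM (269 to 303), SWAT 278 (260 to 298) and MWAT 224 (204 to 246), while NWAT had 33.6 (27.7 to 40.4) and HWAT 31.6 (18.1 to 51.3, from 16 UMIs). No interval of the first 3 overlapped one of the last 2. MWAT, the lowest of the first 3, was 6.66-fold over NWAT, the higher of the last 2 (5.41 to 8.25), and EWAT was 1.03-fold over SWAT (0.938 to 1.13), which counting error covers. A split of this kind at 5-fold was found for 19 of 13815 genes tested in endothelium, or 0.138%, and at 2-fold for 1.04%, and Sox18 was the 1 member of 7 with it at either fold. The 2 sets of depots were drawn after the levels were seen, so these percentages are a description.

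The split was also looked for in each endothelial cluster. Endothelial nuclei fell into a capillary-like, a venous-like, an arterial-like and an unnamed cluster, the last holding 33.3% of endothelial nuclei in MWAT and 19.8% in HWAT but 1.70 to 7.70% in the other depots. Comparing the lowest of EWAT, SWAT and MWAT with the highest of NWAT and HWAT, Sox18 was 5.20-fold higher in the capillary-like cluster, 6.30-fold in the venous-like, 7.86-fold in the arterial-like and 6.42-fold in the unnamed one. The HWAT side of these ratios is thin, with 9, 1, 4 and 2 Sox18 UMIs in these clusters, and NWAT had too few nuclei in the unnamed cluster for a level. In the capillary-like cluster SWAT had 289 CPM and HWAT 55.6 (25.4 to 105.6), and in the unnamed cluster EWAT had 132 CPM (97.7 to 173.6) and HWAT 20.5 (2.48 to 74.1). The same ratio was 1.08 to 1.93 for Sox17 in the 3 named clusters and 0.270 to 0.549 for Sox7 in all 4. In the unnamed cluster Sox17 had no ratio, with 12.0 CPM in SWAT, from 1 UMI, and 0 UMIs in HWAT. None of the 12 genes linked to SoxF factors and none of the 10 endothelial markers showed the split at 2-fold. Per Sox17 UMI, endothelial nuclei held 1.302 Sox18 UMIs in EWAT, 0.883 in SWAT and 0.839 in MWAT, against 0.336 in NWAT and 0.225 in HWAT. A Sox18 UMI was found in 34.4% of EWAT, 30.7% of SWAT and 20.5% of MWAT endothelial nuclei, against 5.78% in NWAT and 3.92% in HWAT. Macrophage nuclei, which are not known for Sox18, gave the background: 0.880% in EWAT (median 1703 UMIs a nucleus, against 1495 in endothelium) and 0.263% in NWAT (median 1998, against 1594). With nuclei thinned to 1000 UMIs, the endothelial shares were 25.1% in EWAT, 24.2% in SWAT and 18.2% in MWAT, against 3.095% in NWAT and 2.86% in HWAT.

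Lymphatic endothelial nuclei reached the 50 needed only in MWAT (234) and EWAT (107). Sox18 was at 194 CPM there in MWAT (142 to 258) and 137 in EWAT (89.5 to 201). Sox17 was at 12.4 CPM in MWAT and 10.5 in EWAT lymphatic nuclei, far under its blood endothelial levels of 267 and 219 CPM in the same depots.

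Vessel type separated the SoxF genes from one another. Sox17 was higher in the arterial-like than in the capillary-like cluster in all 5 depots: 929 against 190 CPM in SWAT (4.88-fold, 4.21 to 5.67), 275 against 67.6 CPM in NWAT (4.07-fold), 395 against 98.9 CPM in HWAT (3.998-fold), 577 against 238 CPM in MWAT (2.42-fold) and 428 against 208 CPM in EWAT (2.06-fold). Sox7 went the other way or was level, at 0.385 to 0.995 times the capillary-like value. Sox18 was at 0.998 to 1.42 times in the 4 depots with enough UMIs. The lowest Sox7 ratio was that of NWAT, with 59.6 CPM in the arterial-like and 155 CPM in the capillary-like cluster, the depot in which Sox17 was 4.07-fold higher in the arterial-like one.

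**Figure D4:**
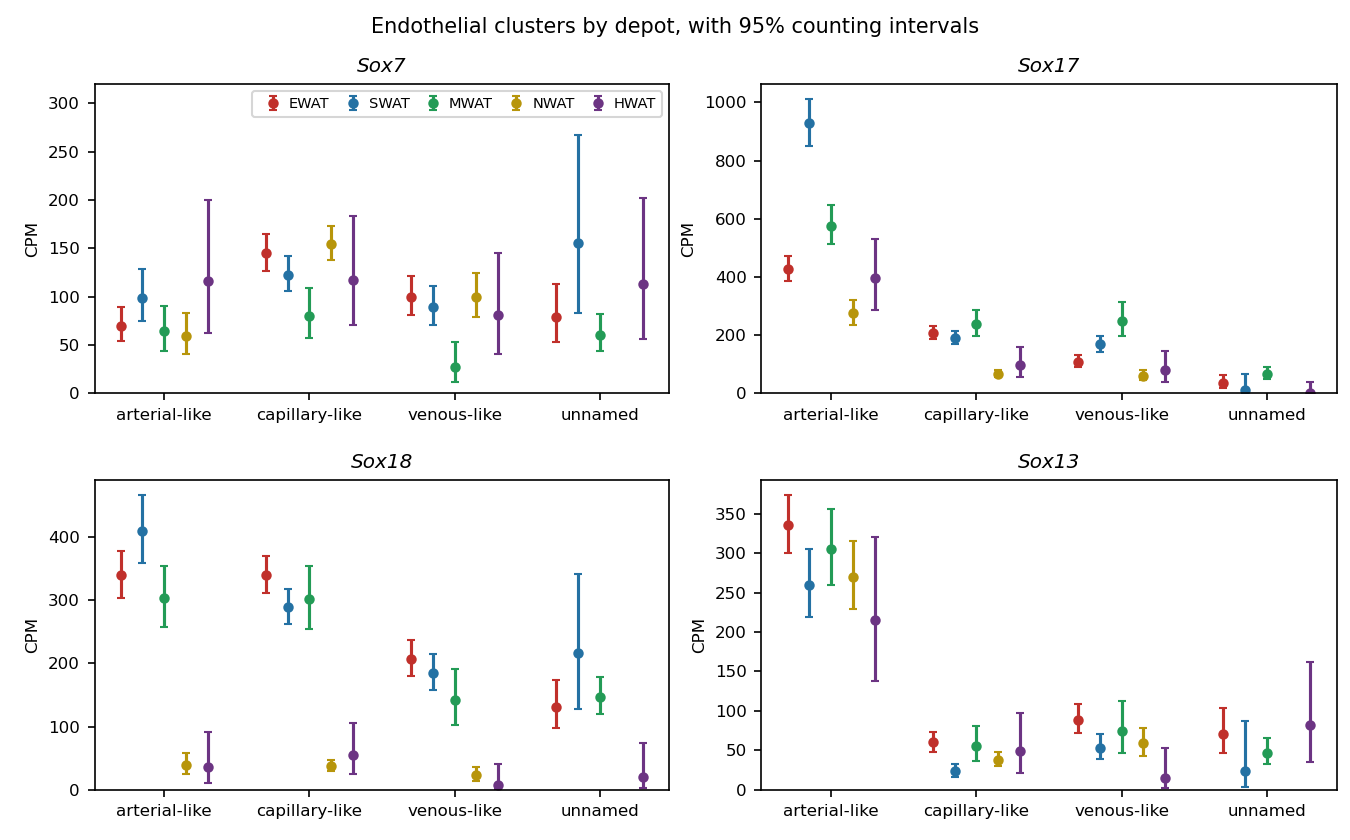
Sox7, Sox17, Sox18 and Sox13 in the arterial-like, capillary-like, venous-like and unnamed endothelial clusters of each depot, in CPM with 95% intervals of counting error. Sox17 and Sox13 are highest in the arterial-like cluster, and Sox18 is lower in NWAT and HWAT than in the other depots in each cluster with at least 50 nuclei of theirs.

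Sox13, a SoxD factor at chr1:133382303-133424377 on the minus strand, followed Sox17 in its preference for arteries. Its arterial-like level was 4.36 to 11.2 times its capillary-like level, with 259 against 23.2 CPM in SWAT at the top of that range. Over the whole endothelial class it was at 136 CPM (124 to 148) in EWAT, 119 (105 to 135) in MWAT, 82.9 in NWAT, 82.9 in HWAT (59.8 to 112) and 75.7 in SWAT (66.2 to 86.1). EWAT was 1.79-fold over SWAT (1.53 to 2.10), a narrower range over depots than that of Sox17 or Sox18.

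In adipocyte nuclei of all 5 depots, the point estimate of Sox13 lay further above the level that endothelial RNA carries than those of Sox17 and Sox18. Sox13 was at 8.55 CPM there in EWAT, 7.87 in NWAT, 7.29 in MWAT, 5.71 in SWAT and 2.63 in HWAT. Scaled by the 10 endothelial markers, these levels were 4.37 (MWAT) to 17.9 times (NWAT, 14.5 to 22.1) the endothelial ones, against 0.665 to 1.94 for Sox17 and 1.44 to 2.95 for Sox18. HWAT does not separate the genes, because its intervals overlap: 5.62 for Sox13 (2.46 to 11.7, 10 UMIs) and 2.95 for Sox18 (0.326 to 12.8, 2 UMIs). Sox17 there was at 0.665 (0.0782 to 2.54, 2 UMIs). Sox13 was also found in EWAT multiciliated (83.8 CPM), epithelial (49.4 CPM) and FAP nuclei (28.3 CPM) and in MWAT smooth muscle nuclei (40.4 CPM), so other sources than endothelium existed in the same libraries. Their part in the adipocyte level was not tested.

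Sox5, a SoxD factor that in mice works with Sox6 and Sox9 in cartilage, lies at chr6:143828425-144781977 on the minus strand and overlaps 7 other annotated genes, 2 of them on its own strand, so reads in its introns may be shared with them. It was present in adipocyte nuclei of every depot, at 904 CPM in EWAT (891 to 917), 728 in MWAT, 709.6 in NWAT, 692 in SWAT and 459 in HWAT (437 to 481). EWAT was 1.97-fold over HWAT (1.88 to 2.07) and 1.24-fold over MWAT. FAP nuclei were higher than adipocytes in every depot, with 1340.1 CPM in NWAT, 1074 in EWAT, 939.9 in MWAT, 842 in SWAT and 643 in HWAT. Pericyte nuclei, the mural cells of capillaries, had the same depots at the ends, with 1914.5 CPM in NWAT and 745 in HWAT. B-cell nuclei, a further class with Sox5, had 1393 CPM in MWAT, 1047 in NWAT and 1012 in HWAT, where they were the class with the highest level. Endothelial nuclei had 27.1 to 63.5 CPM and macrophage nuclei 19.9 to 48.5 CPM.

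A larger depot difference of Sox5 was found in smooth muscle, and it came with a difference in the kind of smooth muscle. Nuclei of this class had 1317 CPM in EWAT and 1312 in SWAT, against 171 in MWAT, so that EWAT was 7.68-fold over MWAT (6.74 to 8.75). In MWAT, 52.7% of smooth muscle nuclei lay in a cluster led by Grm8 and 37.1% in one led by Cacna1c, neither of which held EWAT or SWAT nuclei in numbers of at least 50. Sox5 was at 30.1 CPM in the Grm8 cluster and 44.2 CPM in the Cacna1c cluster. In the 1 smooth muscle cluster with at least 50 nuclei from both EWAT and MWAT, led by Acta2, Sox5 was at 1139.8 CPM in EWAT (989.8 to 1306) and 1685.5 in MWAT (1404 to 2007).

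Sox6, the SoxD factor that in mice holds back slow-fibre genes in skeletal muscle, lies at chr7:115470872-116038796 on the minus strand, with Gm45025 and Sox6os on the opposite strand. Its highest level in these depots was in skeletal muscle nuclei of NWAT (1612 CPM, 141 nuclei), followed by mesothelial nuclei, the cells that line the surface of visceral fat. Mesothelial nuclei had 1549 CPM in NWAT (1498 to 1602), 1477 in EWAT, 1229 in MWAT and 688 in HWAT (668 to 708). NWAT was 2.25-fold over HWAT (2.15 to 2.35), and MWAT and EWAT lay between. The clusters behind these sums differed by depot: the one led by Rbfox1 had 1608 CPM in NWAT and 1515.5 in EWAT, the one led by Eya4 had 1149.8 CPM in MWAT and 935.5 in EWAT, and the 2 HWAT clusters had 595 and 869 CPM.

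In adipocyte nuclei the depots fell into an upper and a lower set. Sox6 was at 609.5 CPM in MWAT (590 to 630), 583 in EWAT and 527 in NWAT, against 303 in SWAT and 233 in HWAT. MWAT was 2.62-fold over HWAT (2.43 to 2.82) but 1.05-fold over EWAT (1.01 to 1.09), so the order among the upper 3 is close. Mesothelial markers in adipocyte nuclei summed to 163 CPM in MWAT, 68.0 in EWAT, 27.96 in NWAT, 3.00 in SWAT and 133 in HWAT, against at least 4814 CPM in mesothelial nuclei. The part of mesothelial RNA in the adipocyte level of Sox6 was not tested. SWAT, a depot in which no mesothelial class was found, had 89.4% of its Sox6 UMIs in adipocytes. In HWAT, where mesothelial nuclei were the largest class, they held 82.0% of Sox6 UMIs.

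Progenitors kept Sox6 low except in MWAT. FAP nuclei had 101 CPM in MWAT (84.2 to 120), 32.0 in EWAT, 21.8 in NWAT, 17.9 in HWAT and 17.4 in SWAT. MWAT was 3.15-fold over EWAT (2.30 to 4.36), a lead of 2-fold or more that 6.09% of all genes tested in FAP nuclei had and that Sox6 alone had among 7 members. Markers of other Sox6-bearing classes were also summed in the same nuclei. Smooth muscle markers summed to 1330 CPM in MWAT FAP nuclei, with 8 of 8 detected, against 59.8 to 142 CPM in the other 4 depots. Mesothelial markers, 9 of 9 detected, summed to 287 CPM in MWAT, inside the range of 3.07 to 416 CPM of the others. Their part in the Sox6 level was not tested. With a cluster led by Kcnn3 and Robo2 left out of the FAP class, MWAT had 114.7 CPM.

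Sox6 followed Sox5 across the kinds of smooth muscle. In MWAT it was at 84.7 CPM in the Grm8 cluster and 208.5 CPM in the Cacna1c cluster. That Acta2 cluster had 1378 CPM of Sox6 in MWAT (1125 to 1671) and 980.1 in EWAT (841 to 1135). In endothelium, Sox6 was 2.99 to 7.44 times as high in the arterial-like as in the capillary-like cluster in the 4 depots with enough UMIs.

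**Figure D5:**
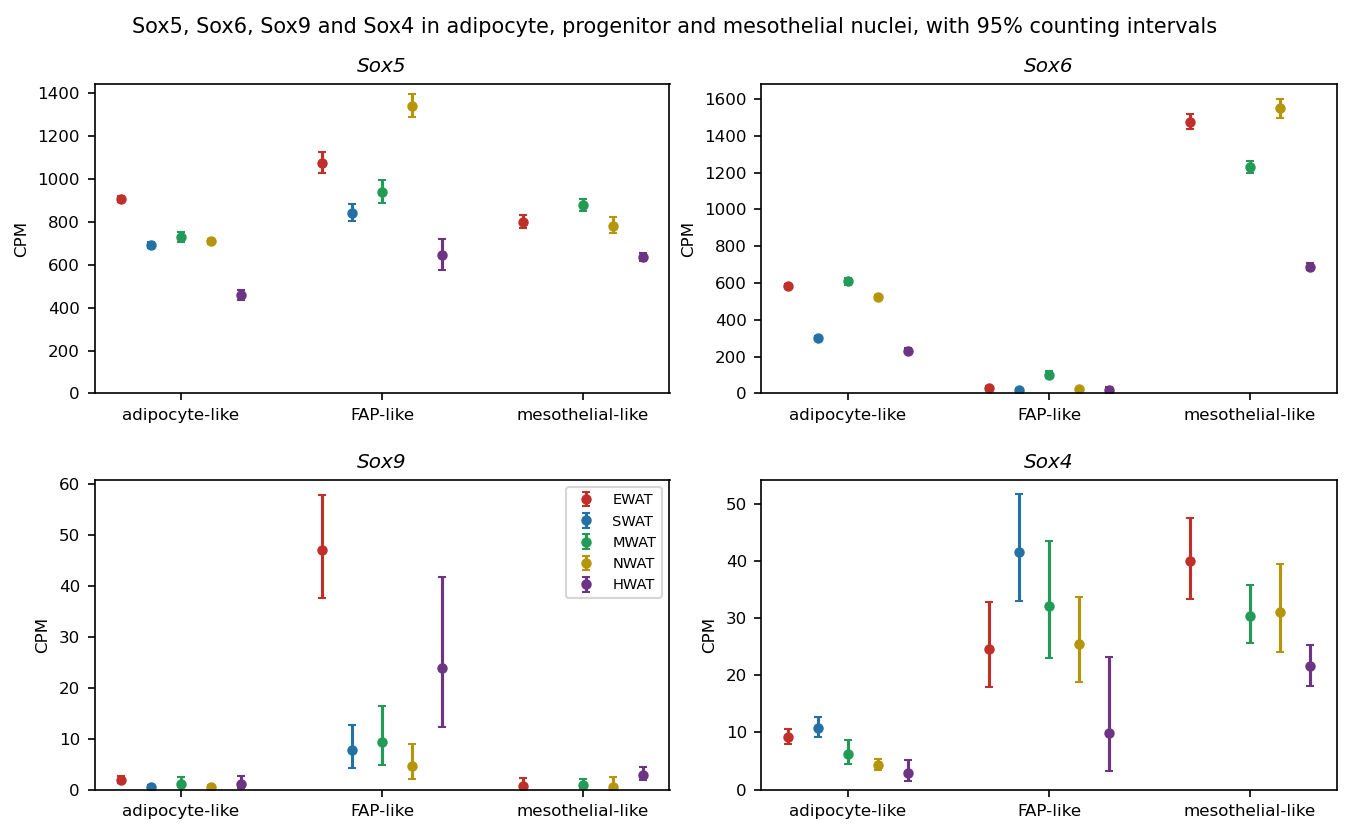
Sox5, Sox6, Sox9 and Sox4 in adipocyte-like, FAP-like and mesothelial-like nuclei of each depot, in CPM with 95% intervals of counting error, each gene on its own axis. Sox6 is high in mesothelial-like and low in FAP-like nuclei, and Sox9 stands at 46.9 CPM in EWAT and 23.9 CPM in HWAT FAP-like nuclei.

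Sox9, a SoxE factor at chr11:112782224-112787760 on the plus strand, had few UMIs, most of them in FAP, epithelial and multiciliated nuclei. In FAP nuclei it was at 46.9 CPM in EWAT (37.6 to 57.8, from 88 UMIs) and 23.9 in HWAT (12.3 to 41.7, from 12 UMIs). The other depots had 9.38 CPM in MWAT (4.85 to 16.4), 7.69 in SWAT (4.30 to 12.7) and 4.68 in NWAT (2.14 to 8.88). EWAT was 6.11-fold over SWAT (3.51 to 11.4) and 10.0-fold over NWAT (5.05 to 22.7), with no overlap of intervals. HWAT was 2.55-fold over MWAT (1.05 to 6.19), and its interval overlaps that of MWAT and of SWAT, so its place apart from those 2 is weakly measured. Both EWAT and HWAT at 2-fold or more over the other 3 was a pattern of 34 of 13108 genes tested, or 0.259%, and of Sox9 alone among 7 members, the pair of depots again being chosen after the levels were seen.

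Epithelial RNA is the other large source of Sox9 in EWAT. Epithelial nuclei there had 135.5 CPM (112 to 162) and multiciliated nuclei 152 (107 to 208), and these 2 classes held 39.7% and 12.8% of the Sox9 UMIs of EWAT, against 29.6% in FAP nuclei. In SWAT, FAP nuclei held 35.7% of 42 Sox9 UMIs, and 42.9% lay in nuclei that no marker list named. Epithelial markers summed to 4.80 CPM in EWAT FAP nuclei, with 4 of 7 detected, against 874 CPM in epithelial nuclei. Sox9 in the other EWAT classes was at 0.620 CPM in mesothelial, 1.28 in endothelial, 1.32 in macrophage and 1.88 in adipocyte nuclei. Within EWAT progenitors, a sub-cluster led by Nlgn1 had 57.1 CPM (44.4 to 72.2, 553 nuclei) and the Dpp4-type sub-cluster, the multipotent layer of the lineage in mice, had 20.8 (10.4 to 37.3, 255 nuclei). A small sub-cluster led by Sct and Scd1 had 88.4 CPM, from 7 UMIs in 51 nuclei (35.6 to 182.2). Its leading genes Scd1, Thrsp, Fasn and Car3 also lead the adipocyte cluster with haemoglobin genes. Whether it mixes progenitor and adipocyte RNA was not tested. In HWAT, the 1 sub-cluster large enough for a level held 317 nuclei and 8 of the 12 Sox9 UMIs, at 17.55 CPM (7.575 to 34.6). None of 8 cartilage genes linked to Sox9, Sox5 and Sox6 reached 20 UMIs in FAP nuclei.

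Sox10, the SoxE factor of Schwann cells, the glia of peripheral nerves, lies at chr15:79154908-79165240 on the minus strand. Schwann-like nuclei held 93.8% of its UMIs in SWAT and 84.3% in MWAT. Their level was 771 CPM in SWAT (620 to 946, 73 nuclei) and 557 in MWAT (486 to 634, 357 nuclei), a ratio of 1.38 (1.07 to 1.77). In NWAT all 24 Sox10 UMIs lay in 20 Schwann-like nuclei, too few for a level. Sox10 was detected in 65.8% of SWAT and 44.3% of MWAT Schwann-like nuclei, against 0.0318% and 0.187% of adipocyte nuclei of the same depots. Median depths were 1529 UMIs in SWAT and 1055 in MWAT Schwann-like nuclei, and 2050.0 and 1471 UMIs in adipocyte nuclei. Thinned to 1000 UMIs, Sox10 was found in 50% of SWAT and 37.4% of MWAT Schwann-like nuclei. The class with the next highest level had 0.664 CPM in SWAT (endothelial, from 2 UMIs) and 18.4 CPM in MWAT (neuron).

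Some genes of the myelin programme that Sox10 is known to switch on differed more than Sox10 between the same nuclei. Pmp22, a myelin membrane protein, was at 2879.6 CPM in SWAT against 264 in MWAT (10.9-fold, 8.77 to 13.7). Mbp, myelin basic protein, was at 1736 CPM in SWAT against 249 in MWAT (6.98-fold). Egr2, the partner of Sox10 in myelination, had 6 UMIs in SWAT and 0 in MWAT, and Gjb1, a myelin gap junction protein, had 3 in SWAT and 0 in MWAT, too few to give a ratio. Erbb3, the neuregulin receptor (1.44-fold, 0.890 to 2.27), and S100b, a glial calcium-binding protein (0.741-fold, from 0.529), had intervals that include 1. S100b is among the markers that named the class, which held the nuclei of both depots in 1 cluster. The MWAT library also held 197 neuron and 742 interstitial cell of Cajal nuclei, classes with 0 SWAT nuclei. Whether the glia of MWAT and SWAT are of the same kind was not tested. In the Schwann-like nuclei Sox5 was at 76.2 CPM in SWAT, from 9 UMIs, against 766 in MWAT (0.0995-fold, 0.0451 to 0.191). Sox6 was at 771 against 596 CPM (1.29-fold). Of these 2 SoxD genes, then, Sox5 was lower in SWAT than in MWAT, and Sox6 was not. With 1 library a depot, a link of Sox5 to Pmp22 and Mbp was not tested.

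Sox4, the SoxC factor, lies at chr13:28948919-28953713 on the minus strand, with Gm26735 opposite, and was low to moderate in many classes, with no class that stood out in all depots. FAP nuclei had 41.5 CPM in SWAT (33.0 to 51.6), 32.1 in MWAT, 25.5 in NWAT, 24.5 in EWAT and 9.95 in HWAT, and SWAT was 4.17-fold over HWAT (1.72 to 13.2) and 1.29-fold over MWAT (0.879 to 1.93). Mesothelial nuclei had 39.98 CPM in EWAT, 31.1 in NWAT, 30.3 in MWAT and 21.5 in HWAT, with EWAT 1.86-fold over HWAT (1.45 to 2.37). Adipocyte nuclei were lower, at 10.8 CPM in SWAT down to 2.895 in HWAT, a ratio of 3.74 (2.03 to 7.66). HWAT was thus lowest in all 3 classes. The highest EWAT levels were 119.7 CPM in multiciliated and 75.8 in epithelial nuclei.

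To describe which other genes share the distribution of each member, the log2(CPM + 1) levels of 15350 genes were correlated with it over the 52 class and depot sums. These points share libraries and depths, so Pearson's r is given as a description only. The nearest to Sox7 were Bcl6b (0.781), Dll4 (0.778) and Exoc3l (0.776), to Sox17 Ptprb (0.824) and Gja5 (0.8015), and to Sox18 Erg (0.827) and Grrp1 (0.826). Ptprb and Erg are among the markers that named the endothelial class, so those likenesses are partly built in. Sox13 had no close companion, with Yes1 first (0.692). Sox10 had the closest ones, Cmtm5 (0.9655) and Kcna6 (0.9555), and Sox9 was nearest to Sct (0.8095) and Dact2 (0.806). Trabd2b was nearest to Sox5 (0.799) and Mtcl1 to Sox4 (0.769). For Sox6 the nearest was Gm45025 (0.774), which overlaps it on the opposite strand.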

How the data were processed

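Whole-number UMI counts per gene and nucleus were deposited by the authors as 1 filtered matrix per depot. Per the file headers, Cell Ranger 6.0.1 made them. The submitters' processing notes name mm10 and Seurat; the annotation release is not given in the sources used here. Depth was 1279 (MWAT) to 2643 (NWAT) median UMIs a barcode. From these counts, nuclei with at least 200 genes and at most 10% mitochondrial UMIs were kept (149 removed), simulated doublets were removed at 0.8% per 1000 nuclei (9642 nuclei, 9.85 to 15.8% of a library), and nuclei were clustered on 2000 variable genes, all Sox genes left out (40 components, 20 neighbours, Leiden resolution 1, no integration). Clusters were named by marker lists, against clusters of other classes weighted to the same mix of libraries. Naming needed a mean log2 fold of at least 1 and a lead of at least 0.5, with 10 CPM added. Further conditions covered the number of markers raised, the leading genes, cluster size and depth. Unnamed or closely contested clusters were split once at resolution 0.5. The endothelial clusters were named against each other by a looser rule. Removing doublets and naming from markers can move levels where classes share RNA.

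UMIs were summed by class and depot and given as CPM with exact Poisson intervals. Ratios have exact conditional intervals, and ratios of ratios exact conditional odds-ratio intervals. A gene was tested in a class with at least 50 nuclei in a depot and at least 20 UMIs over depots. With 1 library a depot, no test was run between depots. The members and gene lists were chosen with earlier results of these data known, and the naming thresholds were set after clusters were seen. Genes named beyond the members are the nearest by correlation (genes of at least 200 UMIs) and listed genes; some genes that meet these rules are not reported here. Sequences and positions come from GENCODE vM21 transcripts on GRCm38. Tools were Python 3.11.15, numpy 2.4.6, pandas 2.3.3, scipy 1.17.1, scikit-learn 1.9.0, igraph 0.11.9, leidenalg 0.10.2 and matplotlib 3.10.9. The calculation was tested on simulated counts.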

Additional observations from a re-analysis of the deposited data

How the results depend on the processing

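No paired analysis was possible because each depot is 1 library, so the depots share a single replicate number. Filters, doublet rates, clustering resolution, clustering each library alone, thinning, mean CPM of single nuclei and subtraction of free RNA were tried. The free-RNA profile was the sum of all barcodes of a library and was not measured in empty droplets. Leaving out clusters and the Sox18 and Sox9 ratios were added after seeing the data. There were 35 member and depot pairs with at least 20 UMIs in the leading class. Under the other settings, 30 to 35 of these pairs kept the same leading class. The ratio of Sox7 in EWAT adipocytes to the next depot was 10.3, with 19.2 after subtraction of a free-RNA profile, 75.4 with each library clustered by itself (NWAT and SWAT adipocyte clusters went unnamed there) and 9.20 to 11.2 otherwise. With mean CPM of single nuclei, the ratio against Sox17 fell to 20.9, against Sox18 to 20.6 and against the markers to 32.8; it was 32.2, 31.3 and 51.5. Against the markers it was also 61.1 with at most 2% mitochondrial UMIs, 60.4 with each library clustered by itself and 61.35 without the haemoglobin-led cluster; the causes were not tested. Subtraction gives no value for these 3 ratios. The Sox18 ratio of 6.66 stayed at 5.728 to 6.67 and the Sox9 ratio of 2.55 at 2.12 to 3.69. Of 147 levels, 63 moved by over 1.5-fold after subtraction, 29 with no doublets removed and at most 8 under any other setting. Depth limits HWAT most, where Sox18 rests on 16 endothelial and Sox9 on 12 FAP UMIs.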

Other observations

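Sox7 was also detected in macrophage nuclei. Those of HWAT had 8.07 CPM (4.52 to 13.3), from 15 UMIs in 13 of 980 nuclei. Scaled by the 10 endothelial markers, this was 14.2 times the endothelial ratio (7.03 to 27.3), while EWAT macrophages, at 4.95 CPM, were at 3.21 times (1.76 to 5.44).

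Of 10 other Sox genes, few reached a level that could be compared. Sox12, a SoxC relative of Sox4, was at 34.8 CPM in MWAT mesothelial nuclei, against 21.0 in NWAT, 19.5 in EWAT and 18.5 in HWAT. Sox8, the third SoxE gene, was at 14.8 CPM in HWAT mesothelial nuclei (12.1 to 17.98) against 4.875 in MWAT. Sox11 was at 36.85 CPM in MWAT interstitial cells of Cajal and 19.8 in NWAT FAP nuclei (13.98 to 27.1). Sox1 and Sox14 had 0 UMIs, and Sox21 had 12, all in HWAT.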
